A study of Mus musculus with 4 samples.

Results

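Leukotrienes, prostaglandins and platelet-activating factor (PAF) are lipid mediators that immune cells make from membrane phospholipids. 10 genes of these pathways were followed: Alox5, Alox5ap, Lta4h, Ltc4s and Cysltr1 of the leukotriene branch, Ptgs1, Ptgs2, Hpgds and Ptges of the prostaglandin branch, and Ptafr, the PAF receptor. They were taken by their symbols. All 10 were among the 32285 genes of the deposited count table. Together they held 46463 UMIs (unique molecular identifiers, each standing for 1 captured transcript), ranging from 24998 for Alox5ap and 8083 for Ptafr down to 362 for Hpgds and 29 for Ptges.

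The cells were viable CD45+ cells sorted from the esophagus of 10 mice with an induced form of eosinophilic esophagitis, in which food allergy inflames the esophagus. 5 animals were wild-type and 5 were IL20RB knock-out (IL20RB-/-; Il20rb encodes a receptor subunit for cytokines of the IL-20 family). The sources used here give neither the way the allele was made nor the strain or age of the animals. All 10 had been sensitised on the ear with 1 nmol MC903 (calcipotriol, a vitamin D analogue) and ovalbumin for 14 days, then challenged with ovalbumin, both drunk with the water and gavaged on days 15 and 17, and were sampled on day 18. No untreated animals were analysed here, so no value below is a response to the model.

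Each animal carried its own hashtag antibody, all suspensions were pooled and sorted together, and 2 wells were loaded. The table held 6054 cells, 3421 wild-type and 2633 knock-out, with 271 to 897 cells and 1805883 to 5666994 UMIs per animal. Ptprc, which encodes CD45, had a UMI in 88.6% of cells. Il20rb itself had 16 UMIs, of which 10 were in wild-type cells, too few to check the genotype labels, and a 3′ tag need not lie in the deleted part. Cells were grouped into 38 clusters without using the pathway genes, and clusters were named only from fixed markers, so each name is rebuilt and written "X-like"; 918 cells in 7 clusters stayed unnamed. No cluster was eosinophil-like, so the eosinophil, a known source of cysteinyl leukotrienes, has no class below. Of its markers Epx, Ear1 and Ear6 had 0 UMIs in all cells, while Siglecf had 75, Prg2 56, Il5ra 30 and Ccr3 23. 2 cell barcodes occurred in both wells.

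The pathways branch from arachidonic acid. 5-lipoxygenase (Alox5), helped by the membrane protein FLAP (Alox5ap), makes leukotriene A4, which leukotriene A4 hydrolase (Lta4h) turns into the neutrophil attractant leukotriene B4 and leukotriene C4 synthase (Ltc4s) into the cysteinyl leukotrienes, which act through Cysltr1. Cyclooxygenase 1 (Ptgs1) and the inducible cyclooxygenase 2 (Ptgs2) make prostaglandin H2, which haematopoietic prostaglandin D synthase (Hpgds) turns into prostaglandin D2 and the inducible synthase Ptges into prostaglandin E2. PAF is a phospholipid made by a separate route, and its receptor Ptafr is a known myeloid receptor.

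The sequences just upstream of 4 members that differed in their spread over the classes are shown first. They are the 250 bases before the annotated start, on the gene's own strand, 5′ to 3′, from RefSeq; its build, GRCm38.p6, is a patch of mm10. Ptgs2 was the gene of the neutrophil-like cells (chr1:150099781-150100030, plus strand). Ptafr was highest in neutrophil-like cells, lowest in T cell-like and cDC1-like cells, and shared by the classes between (chr4:132563817-132564066, plus strand). Ltc4s was highest in macrophage-like cells (chr11:50238533-50238782, minus strand), and Alox5 had its highest mean levels over animals in neutrophil-like and ILC2-like cells (chr6:116461179-116461428, minus strand). Capitals mark every match, on either strand, to 9 searched motifs.
Ptgs2: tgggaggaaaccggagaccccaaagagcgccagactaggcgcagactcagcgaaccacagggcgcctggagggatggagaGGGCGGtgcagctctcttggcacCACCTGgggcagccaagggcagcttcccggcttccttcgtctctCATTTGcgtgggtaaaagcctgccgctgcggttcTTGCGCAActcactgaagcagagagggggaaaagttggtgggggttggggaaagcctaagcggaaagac
Ptafr: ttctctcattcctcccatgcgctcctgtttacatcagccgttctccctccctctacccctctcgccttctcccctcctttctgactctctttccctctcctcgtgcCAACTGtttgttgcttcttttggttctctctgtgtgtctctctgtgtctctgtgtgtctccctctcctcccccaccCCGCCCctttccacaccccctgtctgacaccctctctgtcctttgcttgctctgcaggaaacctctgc
Ltc4s: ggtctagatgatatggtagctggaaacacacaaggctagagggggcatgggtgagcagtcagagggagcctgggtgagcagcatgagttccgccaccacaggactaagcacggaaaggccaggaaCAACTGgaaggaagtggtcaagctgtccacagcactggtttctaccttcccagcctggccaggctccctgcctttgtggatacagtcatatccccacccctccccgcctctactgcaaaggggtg
Alox5: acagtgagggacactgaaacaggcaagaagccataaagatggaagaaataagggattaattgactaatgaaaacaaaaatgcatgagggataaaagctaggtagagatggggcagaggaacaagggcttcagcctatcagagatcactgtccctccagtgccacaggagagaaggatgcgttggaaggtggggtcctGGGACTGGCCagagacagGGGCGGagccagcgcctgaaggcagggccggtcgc
8 of the 10 members had an entry in the promoter table; Alox5ap and Cysltr1 did not.

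The motifs searched were the TATA box (TATAAA), the cyclic AMP response element (TGACGTCA), C/EBP (TTGCNNAA), the E-box (CANNTG), a GATA-factor site (AGATAA), PU.1 (GAGGAAG), NF-kB (GGGA, any 4 bases, CC), the GC box (GGGCGG) and AP-1 (TGANTCA). The Ptgs2 window held the C/EBP letters, with their first base at -69 from the start, which 9.56% of 32851 windows of the same length held, and also E-boxes at -147 and -103 (66.2% of windows hold one) and a GC box at -170 (32.7%). The Ptafr window held an E-box at -144 and a GC box at -68, the Ltc4s window an E-box at -125, and the Alox5 window the NF-kB letters at -53 (17.6% of windows) and a GC box at -35. None of the 4 windows held the letters TATAAA, which 12.4% of windows held. These are matches of letters and say nothing of binding.

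The members fell into distinct patterns over the 9 classes that had at least 10 cells in 3 or more animals. Levels are CPM, the gene's share of all UMIs of an animal's cells of a class times 1000000, given as the mean over animals ± SD. For each member the highest class was compared with the next within animals, by a two-sided exact sign-flip permutation test on log2(CPM + 20), adjusted over the 10 members. The highest and the next class were picked by these same levels, and the p-values do not account for that choice. That comparison passed for Hpgds alone (adjusted p = 0.0391), and not when adjusted over all 80 pairs of neighbouring classes (adjusted p = 0.25). For several others the number of animals holding both classes set the smallest p that could be reached, as with Ptgs2 and Ptafr, where 7 animals allow no p below 0.0156. The plot of levels per animal and class shows the patterns member by member.

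**Figure D1:**
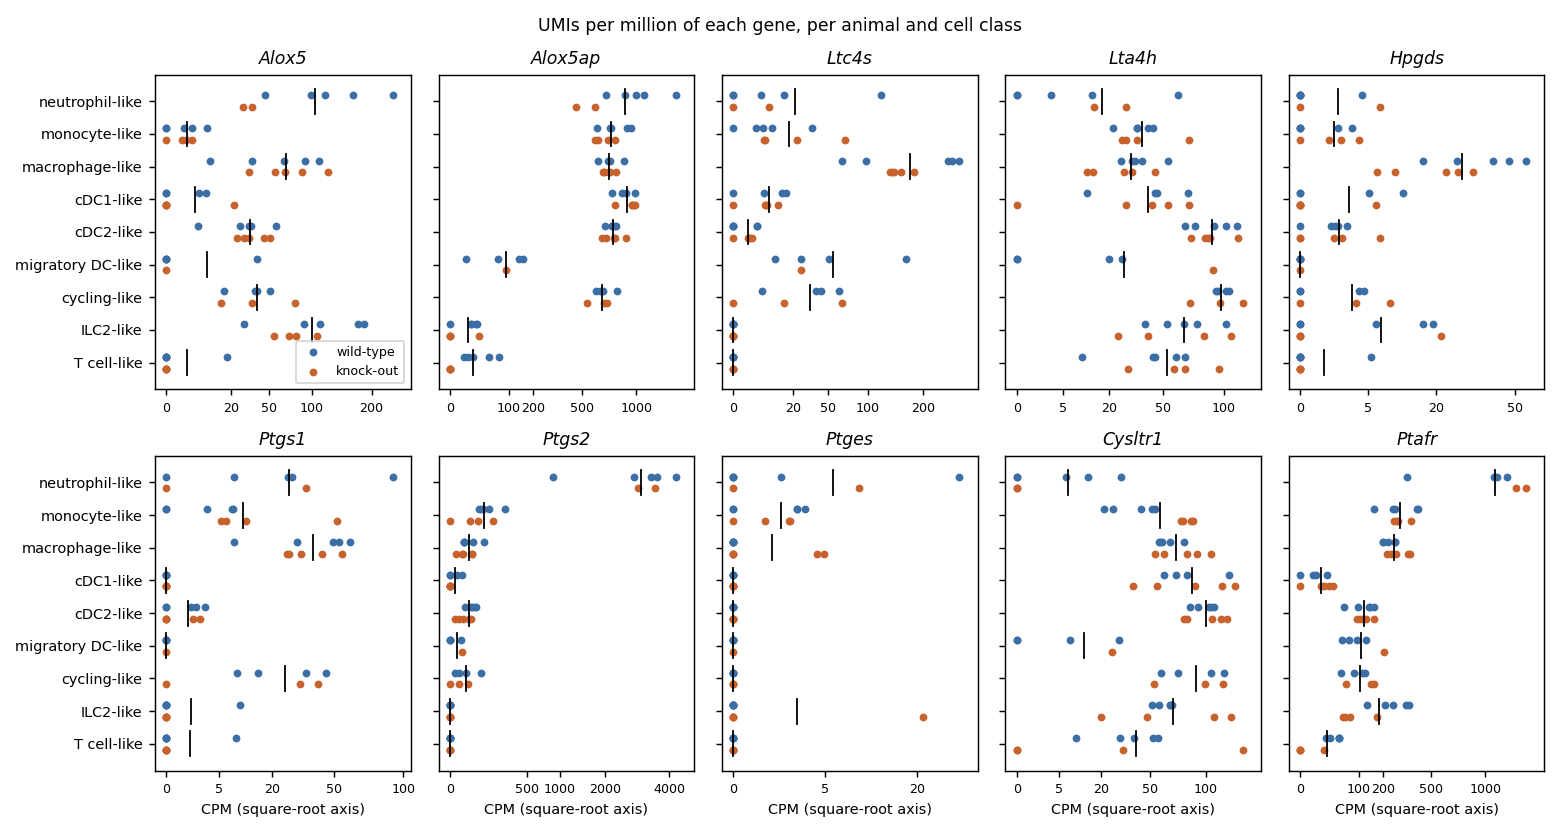
Each panel shows 1 gene, with a point per animal that had at least 10 cells of the class (blue wild-type, orange knock-out), a black bar at the mean over animals, and CPM on a square-root axis whose range differs between panels. Ptgs2 lies far to the right in neutrophil-like cells (mean 3044 CPM, against 97.9 in the next class), and Ltc4s, Hpgds and Ptgs1 have their highest means in macrophage-like cells.

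Alox5, the 5-lipoxygenase gene (chromosome 6, 116410071 to 116461178), was found in 5 of the 9 classes at more than 30 CPM. Its level was 105 ± 78.8 CPM in neutrophil-like cells (n = 7 animals), 101 ± 52.1 in ILC2-like cells (n = 9) and 67.8 ± 36.3 in macrophage-like cells (n = 10), followed by 38.7 ± 22 in cycling-like (n = 7) and 33.5 ± 15 in cDC2-like cells (n = 10). ILC2s are group 2 innate lymphoid cells, tissue lymphocytes known for the type 2 cytokines IL-5 and IL-13. Neutrophil-like and ILC2-like levels could not be ordered: the neutrophil-like value was the higher in 2 of the 7 animals that had both (exact sign-flip p = 0.75, adjusted p = 0.833). Pooled over all cells of a class, where animals with more cells weigh more, Alox5 was 60 CPM in neutrophil-like cells. It was 113 CPM in ILC2-like and 57.5 in macrophage-like cells, pooled in the same way. Monocyte-like cells held 2.08 ± 2.52 CPM and T cell-like cells 1.92 ± 5.77.

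Alox5ap, which encodes FLAP, was high in 6 of the classes, all of them myeloid or cycling, and close to absent in the lymphoid ones. Its level in the 6 ranged from 670 ± 80.4 CPM in cycling-like cells (n = 7) to 905 ± 88 in cDC1-like cells (n = 9), with neutrophil-like, cDC2-like, monocyte-like and macrophage-like cells between them. None of these neighbours in the order differed beyond their spread (adjusted p of at least 0.764 over 80 neighbouring pairs). Unnamed clusters lie outside the classes, so this range does not cover them. By cluster, the highest pooled levels were 1449 CPM in unnamed cluster 37 and 1275 in neutrophil-like cluster 20. Next came unnamed clusters 15 and 13, at 1156 and 959 CPM, against 904 in cDC1-like cells, also pooled. Migratory DC-like cells, mature dendritic cells on the way to lymph nodes, held 91.3 ± 58.3 CPM (n = 5), and in all 3 animals with both classes they held less than the cycling-like cells (exact sign-flip p = 0.25, the smallest that 3 animals allow).

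Alox5 without Alox5ap was common in the ILC2-like cells. There, 84 of 298 cells held an Alox5 UMI and 12 an Alox5ap UMI, and 78 cells (26.2%, exact 95% binomial interval 21.3% to 31.6%) held Alox5 without Alox5ap. In macrophage-like cells the same combination was found in 22 of 1123 cells (1.96%), and 245 cells held both. In 2 small clusters, cells with an Alox5 but no Alox5ap UMI made up 6 of 20 mast cell-like cells (30%, 11.9% to 54.3%) and 8 of 22 cells of cycling-like cluster 33 (36.4%, 17.2% to 59.3%). In T cell-like cells of the same suspensions, at a like median depth (3037 UMIs per cell against 3281 in ILC2-like cells), 1 of 234 cells held an Alox5 UMI. Macrophage-like cells had a median of 4982 UMIs, and intervals of this kind cover counting error only.

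Lta4h, the hydrolase for leukotriene B4, had the flattest pattern. It was 97.2 ± 14.9 CPM in cycling-like cells, 88.5 ± 16.8 in cDC2-like cells and 65.2 ± 29 in ILC2-like cells, and lowest in neutrophil-like cells at 16.9 ± 21.8. The cycling-like and cDC2-like levels did not differ beyond their spread (4 of 7 animals higher, adjusted p = 0.43).

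Ltc4s, the synthase for cysteinyl leukotrienes (chromosome 11, 50236461 to 50238532), was chiefly a macrophage-like gene. Its level was lowest at 66.1, had a median of 150 and reached 284 CPM over the 10 animals in macrophage-like cells, against 55.6 ± 63.7 in migratory DC-like cells (n = 5). All 5 animals with both classes had more in macrophage-like cells, by 1.48 ± 0.56 (SD) on the log2 scale with 20 CPM added (exact sign-flip p = 0.0625, the smallest that 5 animals allow; adjusted p = 0.156). ILC2-like and T cell-like cells held 0 Ltc4s UMIs, in 298 and 234 cells. For the ILC2-like cells, pooled, a count of 0 allows up to 2.85 CPM.

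Cysltr1, the receptor for cysteinyl leukotrienes (chromosome X, 106576509 to 106603679), was spread over most classes rather than held by any of them. cDC2-like cells had 100 ± 15.7 CPM, cycling-like 89.6 ± 28.4, cDC1-like 85.7 ± 33.5, macrophage-like 70.8 ± 17.3, ILC2-like 67.9 ± 32.6 and monocyte-like 57.7 ± 24.7, and no neighbouring pair in this order differed beyond its spread (adjusted p of at least 0.764). Neutrophil-like cells had 7.34 ± 11.5 CPM, the lowest of the 9 classes, with a UMI in 8 of 603 cells.

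Ptgs2, inducible cyclooxygenase (chromosome 1, 150100031 to 150108234), was a gene of the neutrophil-like cells. Over the 7 animals with at least 10 such cells, wild-type animals had 2803, 3363, 881, 4251 and 3582 CPM and knock-out animals 1 and 5 had 2938 and 3490. All but wild-type animal 3 lie between 2803 and 4251, and the genotypes overlap. Monocyte-like cells had 97.9 ± 74.1 CPM, below the neutrophil-like cells in all 7 animals, by 4.43 ± 0.68 (SD) on the log2 scale with 20 CPM added (exact sign-flip p = 0.0156, the smallest possible; adjusted p = 0.0521). Ptgs2 had 0 UMIs in the ILC2-like and in the T cell-like cells. The 3 neutrophil-like clusters were alike in it, at 3068, 2923 and 2737 CPM pooled, including the 155 cells whose leading genes also took in the fibroblast genes Dcn and Col3a1. When the pathway genes were also clustered on, 10 cells led by Dcn and Col3a1 formed a fibroblast-like cluster (median 5607 UMIs). The like neutrophil-like cluster then had 140 cells and neither gene among its leading genes. The part of such cells in low levels given for the neutrophil-like class was not tested. Median depth was 1826 UMIs per neutrophil-like cell, and after thinning each cell to 1000 UMIs, 74.4% of these cells still held a Ptgs2 UMI, against 81% unthinned (means over animals).

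Ptgs1, the constitutive cyclooxygenase, had a different place: 38.3 ± 16.3 CPM in macrophage-like cells, 27 ± 31.6 in neutrophil-like cells and 25.2 ± 17.2 in cycling-like cells, which did not differ beyond their spread. It had 0 UMIs in the 174 cDC1-like cells. Hpgds, the prostaglandin D synthase of immune cells (chromosome 6, 65117293 to 65144981), had 28.4 ± 15.8 CPM in macrophage-like cells (lowest 6.3, median 26.8, highest 55.3) and 7.02 ± 9.28 in ILC2-like cells. The macrophage-like level was the higher in 9 of 9 animals, by 0.82 ± 0.58 (SD) on the log2 scale with 20 CPM added (exact sign-flip p = 0.00391, the smallest possible; adjusted p = 0.0391). Leaving out any of the 9 animals took the adjusted p above 0.05, up to 0.0781, since 8 animals allow fewer sign-flips. Ptges, the inducible prostaglandin E synthase, had 29 UMIs in 24 cells and could not be ordered by class.

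Ptafr, the PAF receptor (chromosome 4, 132564067 to 132582683), was highest in neutrophil-like cells, at 1111 ± 373 CPM. All 7 animals with both classes had more there than in monocyte-like cells (293 ± 79.6 CPM), by 1.82 ± 0.8 (SD) on the log2 scale with 20 CPM added (exact sign-flip p = 0.0156, the smallest possible; adjusted p = 0.0521). Macrophage-like cells followed with 257 ± 52.8, ILC2-like with 180 ± 111 and cDC2-like with 119 ± 33, each not separable from its neighbour. These means are over both genotypes. In wild-type animals ILC2-like cells held 253 ± 86.5 CPM and macrophage-like cells 230 ± 31.7. In knock-out animals ILC2-like cells held 89.3 ± 55 CPM and cDC2-like cells 119 ± 24.6. Of ILC2-like cells, 39.7% ± 18.6 held a Ptafr UMI, against 5.32% ± 4.15 of T cell-like cells from the same suspensions (15.6% and 3.76% after thinning to 1000 UMIs). In neutrophil-like cells 3720 Ptgs2 UMIs stood beside 1559 of Ptafr, a ratio of 2.39, and 410 of 603 cells held both. In ILC2-like cells 0 Ptgs2 UMIs stood beside 241 of Ptafr. The ratio was 0.378 in monocyte-like and 0.145 in macrophage-like cells. Whether any Ptafr in ILC2-like cells came from other cells was not tested.

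Small clusters inside these classes carried far higher levels of several members. 1 macrophage-like cluster of 79 cells, led by Lyve1, Folr2 and Gas6 (genes of perivascular and other resident macrophages), held Ltc4s at 857 CPM (95% counting interval 753 to 972), Alox5 at 240 and Hpgds at 124. In 24 of its 79 cells (30.4%) Alox5, Alox5ap and Ltc4s were all detected, the set needed to make leukotriene C4, against 114 of all 1123 macrophage-like cells (10.2%). A second macrophage-like cluster of 35 cells, led by Zmynd15 and Mmp12, held Hpgds at 228 CPM. The 20 mast cell-like cells held Alox5 at 237 and Hpgds at 194 CPM, from 11 and 9 UMIs. Mast cells are a known source of prostaglandin D2, and these cells came from 8 animals with too few in each to compare genotypes.

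The highest level of Hpgds and of Ptgs1 lay in a cluster of 20 cells that no marker list named. Its leading genes were Mfge8, Cd207 and Epcam, followed by H2-M5, and Hpgds, Ltc4s and Ptgs1 were themselves among its 9 leading genes, although no pathway gene was used to make the clusters. It held Hpgds at 614 CPM, Ltc4s at 794, Ptgs1 at 377, Alox5 at 197 and Alox5ap at 1449. Ptgs1 and Hpgds, the pair that leads to prostaglandin D2, were both detected in 19 of the 20 cells, and Alox5, Alox5ap and Ltc4s together in 13. Ptgs2 and Ptafr were never found together in 1 of these cells. The cells came from 7 animals, 9 from wild-type and 11 from knock-out, with at most 6 from any animal, and their median depth of 8208 UMIs was above that of the macrophage-like cells. The cluster was made with all other variable genes of the same cells, so its levels are a description.

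**Figure D2:**
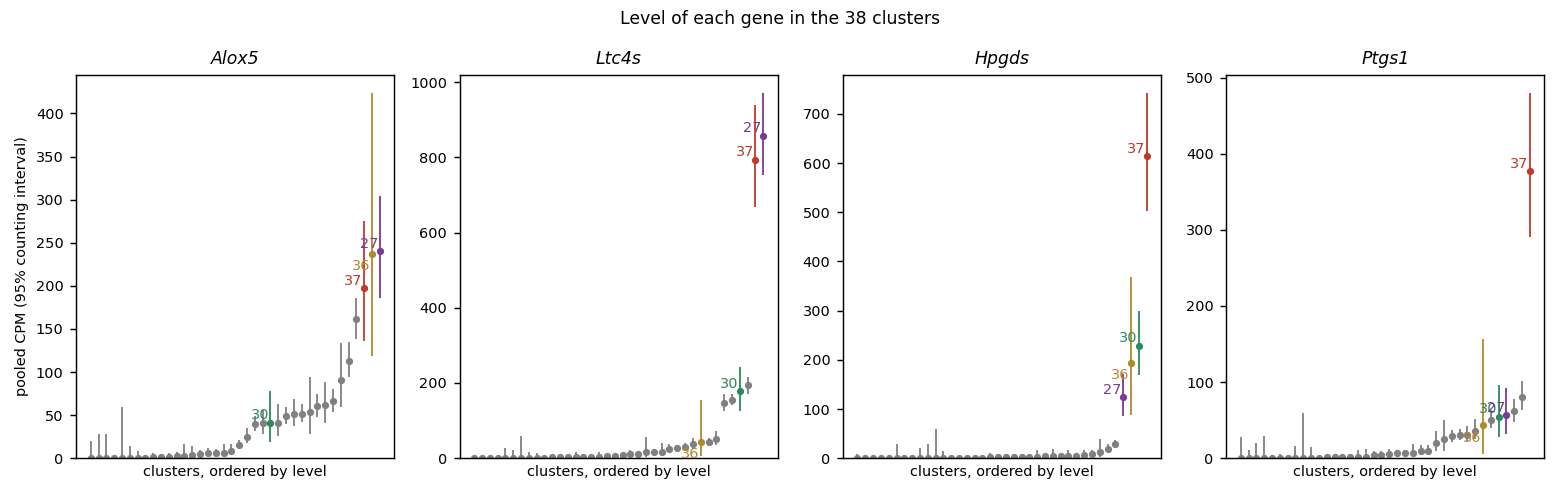
Each panel orders the 38 clusters by the pooled level of 1 gene (CPM, with the 95% exact Poisson interval, which covers counting error only). Cluster 37 (red, 20 unnamed cells), cluster 27 (purple, 79 macrophage-like cells), cluster 30 (green, 35 macrophage-like cells) and cluster 36 (gold, mast cell-like) are numbered: cluster 37 stands at 614 CPM of Hpgds and 377 of Ptgs1, and clusters 27 and 37 at 857 and 794 of Ltc4s.

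The other genes of the pathways, 52 from a list by role, had their own places. Of genes that act on leukotrienes, Cyp4f18, which inactivates leukotriene B4, was at 332 ± 151 CPM in neutrophil-like cells, and the microsomal glutathione transferase Mgst3 at 169 ± 23 in cycling-like cells. Of the leukotriene receptors, the leukotriene B4 receptor Ltb4r1 was highest in ILC2-like cells (341 ± 66 CPM, against 188 ± 50.8 in monocyte-like cells), and Cysltr2 was highest there too (49.4 ± 29.1, against 16.7 ± 13.1 in T cell-like cells). Of the prostanoid receptors, the prostacyclin receptor Ptgir was at 128 ± 46.1 CPM in ILC2-like cells and 21.4 ± 7.4 in cDC2-like cells, and the prostaglandin E2 receptor Ptger4 at 183 ± 120 in migratory DC-like cells. The prostaglandin E synthase Ptges3, also a chaperone of other proteins, was at 256 ± 32.5 CPM in cycling-like cells. Thromboxane synthase (Tbxas1) was at 142 ± 29.1 CPM and the prostaglandin dehydrogenase Hpgd at 63.9 ± 40.4 in macrophage-like cells. For PAF, the synthase Lpcat2 was highest in ILC2-like cells (270 ± 98 CPM) and the plasma acetylhydrolase Pla2g7 in neutrophil-like cells (322 ± 65.8). Of the other lipoxygenases, Alox8 was at 9.17 ± 7.57 CPM in ILC2-like cells, on 11 UMIs in all cells, and Alox15 at 6.28 ± 7.19 in cDC2-like cells. The cytosolic phospholipase Pla2g4a, which releases arachidonate, was at 42.2 ± 79.4 CPM in neutrophil-like and 28.6 ± 11.3 in macrophage-like cells. ILC2-like cells thus held Alox5, Ltb4r1, Ptafr, Lpcat2 and Ptgir, but neither Ltc4s nor Ptgs2.

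As a description, the genes most alike in pattern were sought by Pearson r of log2(CPM + 20) over the 9 classes, among 5016 genes. The nearest to Ptgs2 were Ndel1 (r = 0.991), Sirpb1b (0.99) and Nlrp3 (0.99), to Ptafr Lilr4b (0.975), Zfp36 (0.947) and Stat6 (0.946), and to Alox5ap Mpeg1 (0.98). Lyve1 (0.949) was nearest to Hpgds, Pdlim4 (0.922) to Ltc4s, Dpysl2 (0.986) to Cysltr1, Igfbp4 (0.902) to Alox5, Ybx3 (0.918) to Lta4h and Hacd4 (0.889) to Ptgs1. Bambi (0.974) was listed for Ptges, which rests on 29 UMIs. Among the members themselves the highest r involving well-counted genes was that of Ptgs2 and Ptafr (0.82). The 9 points share libraries and depth.

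Between genotypes, Ptafr in ILC2-like cells was the only member past the threshold in any class, and that call did not hold under most other choices. Counts were summed per animal and class and tested with edgeR's quasi-likelihood test, with Benjamini-Hochberg adjustment over all genes tested and a threshold of 0.05, and folds are log2, knock-out over wild-type, ± SE. A class was tested where 3 or more animals of each genotype had at least 10 cells. Nothing in the sources pairs the animals across genotypes. p-values measure the spread between these animals.

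In ILC2-like cells the wild-type animals had 132, 211, 343, 251 and 327 CPM of Ptafr, from 20 to 84 UMIs each. Knock-out animals 1, 2, 4 and 5 had 59.9, 54.7, 171 and 71.5 CPM, from 3, 4, 8 and 3 UMIs. Knock-out animal 3, with 6 cells and 6 UMIs, had 258 CPM and was left out of the fit for having fewer than 10 cells. Of the animals fitted, 3 of the 4 knock-out values lie below every wild-type value and animal 4 lies among them, while the animal left out sits within the wild-type range.

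The fitted change was -1.61 ± 0.37 (edgeR adjusted p = 0.0492). Ptafr and Alox5 were the 2 members tested there, and 0.452% of the 1547 genes tested were called. Raw CPM gave 253 ± 86.5 against 89.3 ± 55 (two-sided exact permutation p = 0.0317 over 126 splits). With animals of at least 5 cells, which brings knock-out animal 3 in, the change was -1.33 and the edgeR adjusted p 0.145. The call was also lost without any of wild-type animals 2, 3, 4 and 5 or of knock-out animals 1, 2 and 5 (adjusted p 0.0811 to 0.24), and it held when wild-type animal 1 (0.000769) or knock-out animal 4 (0.00762) was dropped. DESeq2 gave -1.58 ± 0.45 and no adjusted p for this gene.

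Depth and other cells' markers were measured beside it. The median UMIs per ILC2-like cell were 2931 to 3868 in wild-type animals against 3088 to 3772 in the knock-out. Of 9 neutrophil markers 7 had a UMI in these cells, Retnlg and Acod1 had 0, and their summed level was 18.8 to 76.8 CPM in wild-type animals against 20 to 47.6 in the knock-out (exact permutation p = 0.802). Of 8 cDC2 markers, 5 had a UMI, with Clec10a, Cd209d and Flt3 at 0, and their sum was 0 to 24.5 CPM in wild-type animals and 0 in the knock-out animals (exact permutation p = 0.0476). The fewest UMIs of an animal fitted were 41978, where 24.5 CPM lies below the limit of 3 counts. The sum of 8 monocyte markers was 950 to 1308 against 1024 to 1198 CPM (exact permutation p = 0.96). That of 12 macrophage markers was 32.7 to 57.6 against 21.4 to 54.7 CPM (exact permutation p = 0.286). The sum of 7 migratory DC markers, 6 with a UMI and Ccl22 at 0, was 89.7 to 123 against 99.8 to 214 CPM (exact permutation p = 0.0476). The 9 ILC2 markers summed to 3261 to 4739 against 3230 to 4182 CPM (exact permutation p = 0.373). The part of these in the result was not tested.

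The genotype difference of Ptafr in ILC2-like cells was also set against that in other classes, as an interaction with the animal as a term. The ILC2-like change was lower than the monocyte-like by -1.65 ± 0.40 (edgeR adjusted p = 0.0347, 0.429% of 3966 genes called), than the macrophage-like by -1.98 ± 0.41 (adjusted p = 0.0352, 0.0372% of 5370) and than the cDC2-like by -1.71 ± 0.36 (adjusted p = 0.0333, 0.0181% of 5511). Against T cell-like cells it was 0.21 ± 0.81 (adjusted p = 0.984, 0.0989% of 2022). With at least 5 cells per animal the adjusted p of the first 3 became 0.259, 0.115 and 0.144. With each animal left out in turn their adjusted p ranged from 0.00472 to 0.164, from 0.000119 to 0.356 and from 0.0152 to 0.407, so each call was lost without some of the animals. In the other classes themselves Ptafr was at 0.06 ± 0.24 in monocyte-like (adjusted p = 0.95), 0.32 ± 0.17 in macrophage-like (adjusted p = 1.0) and 0.02 ± 0.22 in cDC2-like cells (adjusted p = 1.0).

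**Figure D3:**
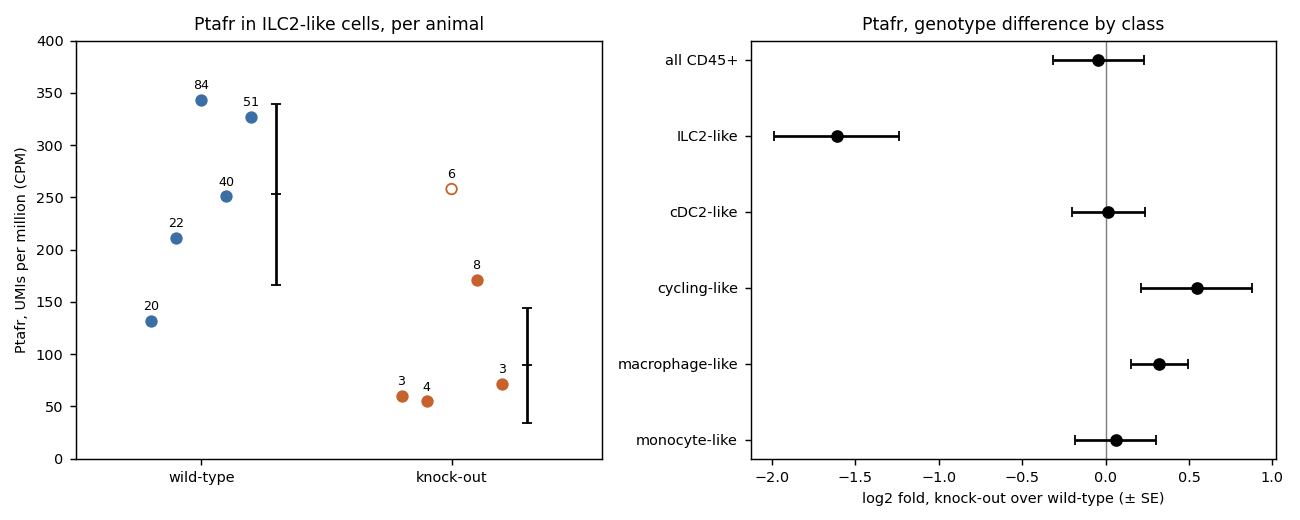
Left, Ptafr in ILC2-like cells, a point per animal with its number of Ptafr UMIs above it (open circle, knock-out animal 3 with 6 cells, not in the fit), and the mean ± SD of the animals fitted. Right, the fitted log2 fold of Ptafr (± SE) in each class where it was tested, from -1.61 in ILC2-like cells to 0.55 in cycling-like cells.

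Cysltr1 in monocyte-like cells came closest to the threshold without passing it. Wild-type animals had 53.7, 50.8, 21.2, 43.2 and 26.1 CPM, and knock-out animals 1, 2, 4 and 5 had 84.5, 86.8, 75.2 and 77.7. Every knock-out value fitted lies above every wild-type value. Knock-out animal 3, with 8 cells, had 0 UMIs, which allows up to 74.5 CPM. The fitted change was 1.06 ± 0.25 (edgeR adjusted p = 0.0533), where 0.972% of the 5145 genes tested were called. DESeq2 called it (1.07, adjusted p = 0.0325), and raw CPM gave 39 ± 14.6 against 81.1 ± 5.46 (two-sided exact permutation p = 0.00794, the smallest that 126 splits allow).

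The count of all genes called in this class moved widely, from 1 without knock-out animal 5 to 343 without wild-type animal 1. The class is not made of the same clusters in both genotypes. Cluster 0, led by Mmp19, Lmna and Vcan, made up 18.6% to 87.8% (median 61.3%) of a wild-type animal's monocyte-like cells and 2.8% to 18.2% (median 6.65%) of a knock-out animal's. Clusters 1 (Vcan, Saa3), 2 (Ccl12, Cxcl10, Ifit2) and 14 held most of the knock-out cells, with 223, 259 and 156 against 83, 45 and 47 wild-type cells. Pooled over animals, Cysltr1 was 22.8 CPM in wild-type and 35.9 in knock-out cells of cluster 0. It was 62.9 and 92.4 in cluster 1, 53 and 87.1 in cluster 2, 55.6 and 70.4 in cluster 14, and 60.9 and 69.3 in cluster 22. The pooled knock-out value was the higher in each of the 5, with overlapping counting intervals in all of them. Such intervals do not cover the spread between animals. Only 2 knock-out animals in cluster 0, 2 wild-type animals in cluster 1 and 1 in cluster 2 had 10 or more cells. Without cluster 0, which left 4 wild-type and 3 knock-out animals with at least 10 cells, the change was 0.44 (edgeR adjusted p = 0.685). With coarser clusters (Leiden resolution 1.5) the change was 0.21 (edgeR adjusted p = 0.872). There the cluster led by Mmp19, Lmna and Vcan (347 cells, 288 of them wild-type) was unnamed and so outside the class. Both settings thus left out a cluster led by these genes. The summed cDC1 markers were 82.2 to 144 CPM in wild-type and 156 to 246 in knock-out monocyte-like cells (7 of 8 with a UMI, Cadm1 at 0), and the pDC markers 353 to 990 and 1285 to 1926 (3 of 7 with a UMI; Siglech, Ly6d, Klk1 and Cox6a2 at 0), both with exact permutation p = 0.00794. The 8 monocyte markers of the class itself summed to 6531 to 11492 CPM in wild-type and 11961 to 15398 in knock-out animals' cells (exact permutation p = 0.0159), and the 12 macrophage markers to 2136 to 4116 and 3567 to 5801 (exact permutation p = 0.0635). The part of these in the result was not tested.

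**Figure D4:**
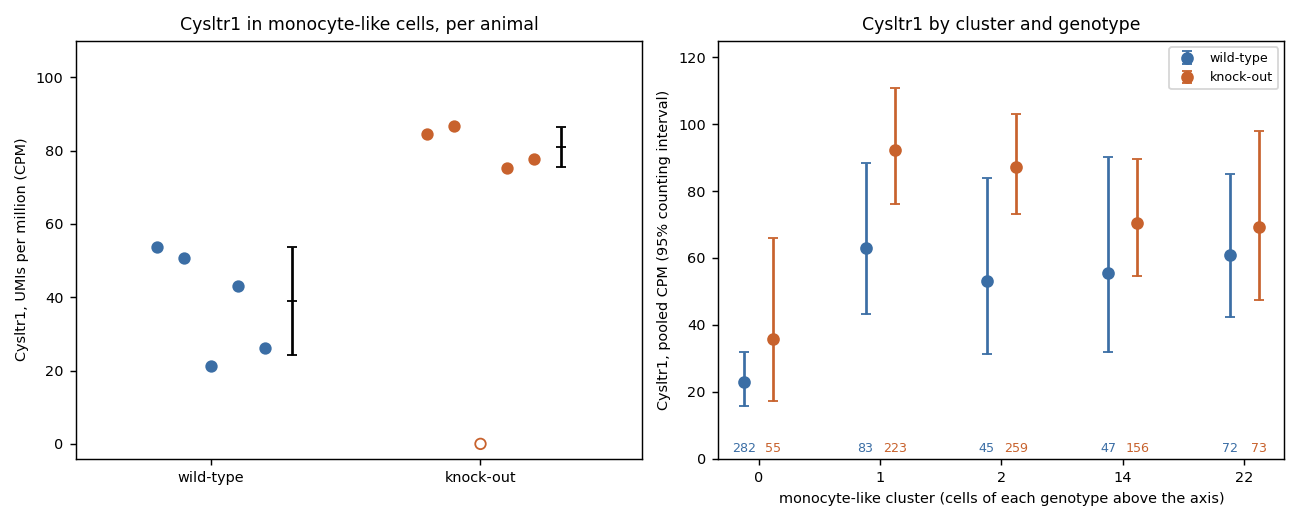
Left, Cysltr1 in monocyte-like cells, a point per animal (open circle, knock-out animal 3 with 8 cells, not in the fit) and the mean ± SD of the animals fitted, 39 ± 14.6 and 81.1 ± 5.46 CPM. Right, its pooled CPM in the 5 monocyte-like clusters by genotype, with 95% exact Poisson intervals, which cover counting error only, and the number of cells above the axis. Cluster 0, with 282 wild-type and 55 knock-out cells, has the lowest level in both genotypes.

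Over all CD45+ cells, 0 of 9 members tested passed edgeR's threshold, 1 had an unadjusted p under 0.05 and 1 was called by DESeq2, in both cases Cysltr1, where 0.0393% of the 10175 genes tested were called by edgeR. Its change was 0.49 ± 0.11 (edgeR adjusted p = 0.215), and raw CPM was 62.8 ± 7.19 in wild-type animals against 85 ± 17.6 in the knock-out (two-sided exact permutation p = 0.0476, adjusted over the members p = 0.476). The share of cells with an Alox5ap UMI was 72.6% ± 5.33 against 80.8% ± 1.83 (exact permutation p = 0.00794, the smallest possible; adjusted p = 0.0794), while its CPM was 698 ± 46.4 against 714 ± 39.4 (p = 0.587). Such a share depends on depth, and the median UMIs per cell were 3569 to 5993 in wild-type and 5133 to 6034.5 in knock-out animals. The part of depth in this share was not tested. Ptgs2 was at -1.28 ± 1.00 (adjusted p = 0.89), and at -0.34 without the neutrophil-like cells. Those cells made up 1.98% to 35.5% of the cells of a wild-type and 0.256% to 7.98% of a knock-out animal, so in the sum over all cells the share of cells of a type and the RNA per cell cannot be told apart.

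In the remaining classes no member was called. In macrophage-like cells 0 of 9 members passed (0.0318% of 6283 genes called; 1 member, Hpgds, with an unadjusted p under 0.05; DESeq2 0), in cDC2-like cells 0 of 6 (0.0172% of 5814; 1 member, Ptgs2; DESeq2 0), in cDC1-like cells 0 of 2 (0.103% of 1946; none; DESeq2 0) and in cycling-like cells 0 of 7 (0.0237% of 4217; none; DESeq2 0). No member passed the filter on low counts in T cell-like cells. The median log2 fold of the members tested was -0.17 in macrophage-like, 0.03 in cDC2-like, 0.24 in cycling-like and -0.13 in monocyte-like cells, beside medians over all genes between -0.02 and 0.01.

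Hpgds in macrophage-like cells was 16.3, 55.3, 47, 40.2 and 26.7 CPM in wild-type animals against 6.3, 26.9, 32.4, 23.1 and 9.71 in the knock-out, from 4 to 48 UMIs each. The groups overlap. The change was -1.09 ± 0.45 (edgeR unadjusted p = 0.0305, adjusted p = 1.0). The 2 clusters richest in Hpgds held 59 and 30 wild-type against 20 and 5 knock-out cells, and within them the pooled level was 112 and 202 CPM in wild-type and 158 and 383 in knock-out cells, with overlapping counting intervals. In cluster 8, of 253 cells, it was 43 CPM (95% counting interval 33.4 to 54.5) in wild-type and 7 CPM (2.82 to 14.4) in knock-out cells, but only 1 knock-out animal had 10 or more cells there. Ltc4s in macrophage-like cells was 66.1, 97.9, 265, 257 and 284 CPM in wild-type animals and 139, 156, 182, 144 and 136 in knock-out animals, so the wild-type animals lay on both sides of all knock-out animals (change -0.34 ± 0.37, adjusted p = 1.0). Ptgs2 in cDC2-like cells was 19.1, 58.5, 37.3, 39.8 and 53.3 against 28.8, 15.3, 1.96, 6.44 and 36 CPM, with a change of -1.18 ± 0.49 (unadjusted p = 0.034, adjusted p = 1.0).

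Neutrophil-like cells reached 10 cells in only 2 knock-out animals. With at least 5 cells, 5 wild-type and 3 knock-out animals could be fitted, a choice made after the cell numbers were known, and 0 of 1440 genes were called by edgeR (61 with an unadjusted p under 0.05; 0 by DESeq2). Ptgs2 was at -0.06 ± 0.50 (adjusted p = 0.998) and Ptafr at 0.38 ± 0.45 (adjusted p = 0.92). Alox5 was at -1.75 ± 0.71 (unadjusted p = 0.0302, adjusted p = 0.906).

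Of the other pathway genes, 0 were called in any class, by edgeR or by DESeq2. In the classes with a member tested, edgeR called 0.0172% (cDC2-like) to 0.972% (monocyte-like) of all genes. DESeq2 called 1 (cDC1-like) to 131 genes (monocyte-like). Among so few listed genes, 0 calls is near that share. The other pathway genes tested numbered 28 over all CD45+ cells, with 11 lower in knock-out animals and a median log2 fold of 0.02. In macrophage-like cells 12 of 21 were lower (median -0.07), in monocyte-like cells 6 of 15 (median 0.04), in cDC2-like cells 10 of 15 (median -0.06), and in ILC2-like cells 1 of 6, Lpcat2 at -0.33 ± 0.28 (edgeR adjusted p = 0.781). In those ILC2-like cells Ltb4r1 was at 0.29 ± 0.20 (adjusted p = 0.691) and Ptgir at 0.19 ± 0.35 (adjusted p = 0.902).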

How the data were processed

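Viable CD45+ esophageal cells of 10 challenged mice were hashtagged by animal, pooled, sorted and loaded on 2 wells with 10x 3′ v3 chemistry, per the labels' protocols. Cell Ranger 6.0.1, R 4.0.5 and build mm10 are named in the submitters' processing notes. The authors deposited UMI counts per gene and cell, with the hashtag of each cell. The calling of hashtags and the strand setting of the counting: not given in the sources used here. The deposited cells held 1000 to 52182 UMIs and no fewer than 501 genes, and mitochondrial UMIs reached 9.99%.

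From these counts, cells were clustered on 2000 variable genes without the pathway genes (30 principal components, 15 neighbours, Leiden resolution 3) with scikit-learn 1.9.0 and leidenalg 0.10.2 in Python 3.11.15. The markers were 160 genes for 22 cell types. A cluster was named where at least 3 markers of the same type were raised by 1 or more on the log2 scale. The type with the highest mean fold gave the name, unless the 10 leading genes held more markers of another type. That last rule left cluster 15, of 198 cells, unnamed. A doublet caller marked 3 cells (0.0496%), too few for a working call, and none was removed. 127 of 32285 gene IDs had no symbol.

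The replicate is the animal, known from its hashtag. Each animal's number follows hashtag order within its genotype, and pairs no animals. Counts were summed per animal and class (at least 10 cells per animal and 3 animals per genotype) and tested in R 4.3.3 with edgeR 4.0.16 (TMM, filterByExpr, robust quasi-likelihood), with DESeq2 1.42.0 as an alternative. The fits were run on simulated counts with known changes. Set limits had to be met only where changes were balanced in direction, and those runs did not include the interaction test. For single values two-sided exact permutation tests were used, and for classes within animals exact sign-flip tests on log2(CPM + 20). Intervals are 95% exact binomial or Poisson, and the limit of a count of 0 is 3 counts.

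The text names all 10 members, the genes with the highest r to each and, per role of the pathway list, the 1 or 2 with the highest class mean. Cell numbers, cluster makeup and other values beside a result were added to it. The members and lists were chosen with earlier results of these data known. 19 alternatives were planned. 5 more were chosen after seeing the data: at least 5 cells per animal, all cells without neutrophil-like cells, all cells without these and monocyte-like cells, macrophage-like cells without the 2 clusters richest in Hpgds, and monocyte-like cells without the largest wild-type cluster.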

Additional observations from a re-analysis of the deposited data

Results flagged for a closer look

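Within groups of 4 or 5 animals of a genotype, 91 groups with a mean of at least 20 CPM were searched for an animal far from the rest by Dixon's test at the 95% level, and 4 held such an animal. Chance gives about 1 in 20 groups. Ptafr in ILC2-like cells was 171 CPM in knock-out animal 4 (8 UMIs, 14 cells), against 54.7 to 71.5 in the other knock-out animals fitted. In neutrophil-like cells wild-type animal 3, with 16 cells, had 334 CPM of Ptafr (11 UMIs), against 1101 to 1253 in the other wild-type animals, and 121 CPM of Ltc4s (4 UMIs), against 0 to 14.2. Alox5ap in cDC1-like cells was 781 CPM in knock-out animal 1 (20 cells), against 952 to 982 in the other knock-out animals.

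The genotype difference of Ptafr in ILC2-like cells differed from that in monocyte-like cells by -1.65, from that in macrophage-like cells by -1.98 and from that in cDC2-like cells by -1.71, each past the threshold in edgeR's interaction test and each lost with at least 5 cells per animal.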

How the results depend on the processing

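The fold of Ptafr in ILC2-like cells (-1.61) was lower in knock-out animals under each setting that could be run. It lost the call with RLE size factors (-1.6), without robust estimation (-1.61), without the top 5% of doublet scores (-1.75) and with at least 5 cells per animal (-1.33), each giving 0 members called in place of 1, and ranged from -2.1 to -1.4 without 1 animal. DESeq2 gave no adjusted p for it, and ILC2-like cells could not be fitted with at least 20 cells per animal or in 1 well. Its difference from monocyte-like cells lost the call with Leiden resolution 1.5 (-1.31), at least 5 cells (-1.4) and no robust estimation (-1.65), and ranged from -2.02 to -1.42 without 1 animal. That from macrophage-like cells lost it with RLE (-1.93), at least 5 cells (-1.72) and without top doublet scores (-2.2), with a range of -2.38 to -1.8. That from cDC2-like cells lost it with RLE (-1.62), at least 5 cells (-1.43) and no robust estimation (-1.71), with a range of -2.03 to -1.52. That from T cell-like cells turned with at least 5 cells (-0.56) and without top doublet scores (-0.61), and ranged from -0.39 to 2.93. The cause was not tested for any of these.

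In monocyte-like cells 1 member, Cysltr1, was called with DESeq2, RLE, at least 20 cells, no filter on low counts, well 2 alone and without top doublet scores, and 0 to 1 without 1 animal. Over all CD45+ cells DESeq2 called 1.

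Genes called in monocyte-like cells numbered 50, against 131 with DESeq2, 76 with RLE, 116 with at least 20 cells, 170 with no filter, 129 with pathway genes clustered on, 131 in well 2, 123 without top doublet scores, 16 without robust estimation, 4 at resolution 1.5, 3 with at least 5 cells, 3 in well 1 and 1 without the largest wild-type cluster, and 1 to 343 without 1 animal. Over all CD45+ cells they numbered 4, against 74 with DESeq2, 2 in well 1 and 16 without neutrophil-like and monocyte-like cells, and 1 to 5 without 1 animal. In ILC2-like cells they numbered 7, against 12 with no filter, and 3 to 9 without 1 animal.

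Hpgds in macrophage-like over ILC2-like cells lost the call at resolution 1.5 (0.59), with at least 20 cells (1.02), in well 1 (0.95) and in well 2 (1.2), and ranged from 0.68 to 0.91 without 1 animal. At resolution 1.5 a cluster of 55 cells, with Hpgds, Zmynd15 and Mmp12 among its leading genes, was unnamed and so outside the macrophage-like class. Orders that turned were none of them called. Alox5 in neutrophil-like over ILC2-like cells became 0.05 with pathway genes clustered on and 0.13 in well 1 (-0.36 to 0.02 without 1 animal). Alox5ap in cDC1-like over neutrophil-like cells became -0.24 with at least 20 cells, -0.19 with pathway genes clustered on, -0.12 in well 1, -0.17 in well 2 and 0 without top doublet scores (-0.19 to 0.22). In well 2, Lta4h in cycling-like over cDC2-like cells became -0.03 and Ptges in neutrophil-like over ILC2-like cells 0. At resolution 1.5 a nonclassical monocyte-like class was also named. The highest class mean of Alox5ap was then 1009 CPM, against 905 in the main setting.

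Of the folds in classes, none past the threshold turned. In well 2 Alox5 over all cells became -0.09, Alox5ap -0.02 in cDC2-like and 0.06 in macrophage-like cells, Lta4h -0.2 and Ptafr -0.07 in cDC2-like cells. In well 1 Cysltr1 became -0.05 in cDC2-like cells and Ptafr 0.01 over all cells. At resolution 1.5, where the cluster led by Mmp19, Lmna and Vcan was unnamed, Alox5ap became 0.05 and Ptafr -0.13 in monocyte-like cells. Without the largest wild-type cluster Lta4h became 0.12 and Ptgs2 0.24 there. Ptafr over all cells became 0.24 without neutrophil-like cells and 0.22 also without monocyte-like cells. Without top doublet scores Lta4h became -0.08 and Ltc4s 0.12 in cycling-like cells, and with at least 5 cells Lta4h -0.03. Lta4h in cDC2-like cells became -0.02 with pathway genes clustered on and 0 with no filter. Ptgs2 in neutrophil-like cells became 0.03 with DESeq2. Without the 2 clusters richest in it, Hpgds in macrophage-like cells no longer passed the filter on low counts.

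Without 1 animal, folds crossed 0 for Alox5 over all cells (-0.28 to 0.2), in cDC2-like (-0.01 to 0.45), cycling-like (-0.81 to 0.79) and macrophage-like cells (-0.07 to 0.52), Alox5ap in cDC2-like (-0.03 to 0.1), cycling-like (-0.15 to 0.06) and macrophage-like cells (-0.08 to 0.09), Cysltr1 in cDC1-like (-0.14 to 0.36), cDC2-like (-0.01 to 0.13) and cycling-like cells (-0.01 to 0.39), Lta4h over all cells (0 to 0.17), in cDC2-like (-0.12 to 0.1) and cycling-like cells (-0.16 to 0.15), Ltc4s in cycling-like cells (-1.86 to 0.24), Ptafr over all cells (-0.17 to 0.26), in cDC2-like (-0.14 to 0.13) and monocyte-like cells (-0.11 to 0.18), and Ptgs1 over all cells (-0.09 to 0.37) and in macrophage-like cells (-0.46 to 0.06).

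No paired analysis was possible because each animal carried its own hashtag and no label pairs animals of the 2 genotypes. Of the 30 genes named for likeness, 19 were named again with 5 CPM added in place of 20, and 17 at resolution 1.5. Thinning to 1000 UMIs moved 48 of 100 shares of cells by more than their spread. Depth limits Hpgds, Ptgs1 and Ptges in most classes, and cell number limits ILC2-like and neutrophil-like cells of knock-out animals.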
